A study of Rattus norvegicus with 192 samples.

Results

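The hypothalamus of rats given both vancomycin and perfluorooctane sulfonate (PFOS) was compared with that of rats given the vehicle. The comparison rests on 23 of the 192 libraries of the series, 12 from vehicle and 11 from combination samples. They were chosen by their labels: the libraries titled hypothalamus and vehicle, numbered 1 to 12, and those titled hypothalamus, vancomycin and PFOS, numbered 37 to 48, leaving out any with fewer than 100000 total counts. Only combination library 44, with 1280 counts, was left out. All samples came from adult male wild-type rats of the strain Crl:CD(SD). Vehicle samples came from rats given corn oil, and combination samples from rats given 8 mg vancomycin and 3 mg PFOS per kg body weight, by gavage each day for 7 days (postnatal days 56 to 62). The hypothalamus libraries with 1 compound only, 12 with vancomycin and 12 with PFOS at the same doses, entered the same fit and are quoted beside the result; the library labelled PFOS 31 lacked most hypothalamic peptide transcripts, and a fit without it is given as well. Each treatment filled its own row of plate 1, so the effect of a treatment and that of its row cannot be told apart. The labels number the libraries but do not say that each came from a separate animal, so p-values measure only the spread between these samples.

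PFOS is a persistent perfluorinated surfactant that lowers circulating thyroid hormone in rats. Vancomycin is a glycopeptide antibiotic that is poorly absorbed from the gut and acts mainly on Gram-positive bacteria there. The hypothalamus holds peptide neurons that steer the pituitary, feeding, water balance and arousal, among astrocytes, oligodendrocytes, microglia and vessels. Ribosomal protein transcripts, the first gene group described below, are a large share of polyadenylated RNA in most cells, and their translation is coordinated through a pyrimidine tract at the start of the transcript.

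Libraries were made by BRB-seq, which counts the 3' ends of transcripts after each sample has been tagged with a short barcode and pooled. The barcodes are shown because 4 of the 11 combination libraries carried a different kind of barcode, and a fit without them is given below. All 12 vehicle libraries and 7 combination libraries had a barcode with 1 G or C base, and the other 4 combination libraries had one with 3. G and C are in capitals, and sequences are written 5′ to 3′.
Vehicle library 1: aaaCat
Combination library 37: ttaaCt
Combination library 45: atCGaG
Combination library 46: CatCaG
Combination library 47: CGaCtt
Combination library 48: GaaGaC

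Combination libraries were shallower than vehicle libraries. Total counts ran from 502061 to 1240091 in vehicle libraries (mean 905432 ± 245249, SD, n = 12) and from 172700 to 832058 in combination libraries (mean 532574 ± 176846, SD, n = 11). The difference of the means was -372858 counts (two-sided permutation test with 100000 resamples, p = 0.000600). The median number of genes detected was 11321 in vehicle and 10581 in combination libraries. Because of this gap, the counts of genes called, and the genes the results turn on, are given both without a depth term and with log2 total counts as a covariate. All replicate pairs within a group differed by more than sampling noise, and no pair was counted as 1 sample.

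The libraries carried the peptide transcripts of hypothalamus. Oxt, the oxytocin precursor, was at 368 CPM (counts scaled to a common library total) or more in each of the 23 libraries, and Avp, the vasopressin precursor, at 222 or more. Transcripts of the lateral hypothalamus were also present in each library, with Pmch (melanin-concentrating hormone) at 411 CPM or more and Hcrt (orexin) at 39.8 or more. Markers of pituitary cells made up 0.502 to 0.981% of the counts of vehicle libraries and 0.497 to 0.741% of combination libraries.

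The library labelled PFOS 31, with 1028625 counts, stood apart from the other 46 hypothalamus libraries. Oxt was at 5.07 CPM there and at 368 to 1905 in the others, Avp at 1.01 against 157 to 925, Pmch at 8.11 against 404 to 3218 and Hcrt at 10.1 against 39.8 to 579. The 25 neuropeptide genes in the table made up 0.067% of its counts and 0.401 to 0.891% of those of the others, while 11 markers of cortex, hippocampus and thalamus made up 0.177% against 0.039 to 0.097%. It is in neither of the compared groups, but it enters the spread that the fit shares between groups and every value for PFOS alone. Fits without this library were chosen after the data were seen, and their values stand beside the results that rest on it.

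In the fit without a depth term, 537 of the 6596 genes tested (8.14%) differed between combination and vehicle samples at an adjusted p under 0.05 (edgeR's quasi-likelihood test with Benjamini-Hochberg adjustment, the test behind every adjusted p below). Of these, 198 were higher (3.00%) and 339 lower (5.14%) with both compounds. With log2 total counts as a covariate, 52 genes (0.788%) passed the threshold, 10 higher (0.152%) and 42 lower (0.637%). The genes past the threshold in both fits, with the same sign, numbered 41 (0.622%), of which 7 were higher (0.106%) and 34 lower (0.515%). In this text, "rose" and "fell" refer to the fit without a depth term unless the covariate is named. Without PFOS library 31 the counts were 583 of 6537 genes (8.92%) and, with the covariate, 50 (0.765%), and 38 passed in both fits, 34 of them among the 41. Without vehicle library 1 the 537 became 343. The 52 became 10 to 34 when any 1 of vehicle libraries 1, 3, 4, 5, 9, 10 and 12 or combination libraries 37, 38, 39, 42, 43, 45, 46 and 47 was left out. The median log2 change over all genes tested was -0.00 in both fits. In 0 of the 6596 genes were all libraries of one group above all of the other (0%). In bulk tissue, fewer cells of a type and less RNA per cell cannot be told apart.

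**Figure D1:**
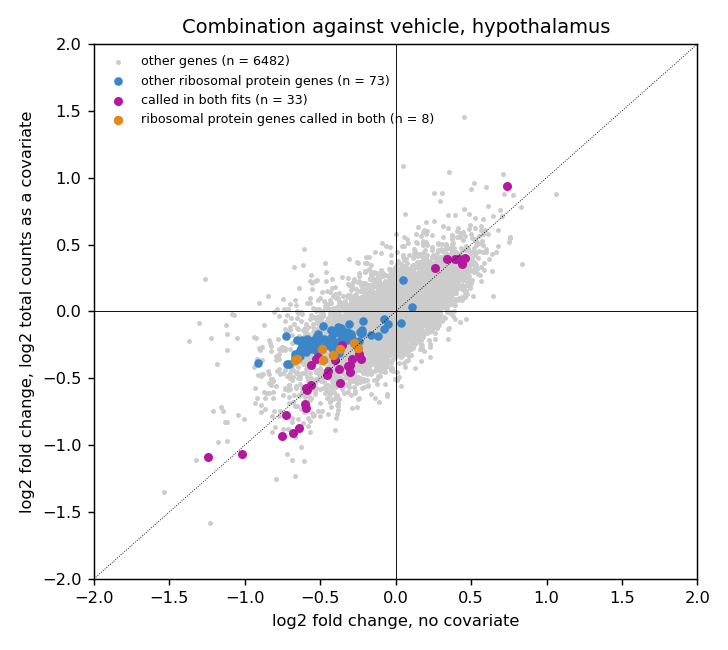
Each point is 1 gene, with its log2 fold change (combination against vehicle) without a depth term on the x axis and with log2 total counts as a covariate on the y axis; the dotted line marks equal values. The 73 ribosomal protein genes not called in both fits lie mostly left of zero and above the dotted line, nearer to zero with the covariate, while the 33 other genes called in both fits lie near the line.

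Cytosolic ribosomal protein genes were lower almost throughout. Of 86 such genes, 81 passed the filter on low counts, and 73 of these fell while 0 rose, against 5.14% of all genes lower. The fit without PFOS library 31 also gave 73 (5.23% of all genes lower). Their median log2 change was -0.42, against -0.00 over all genes, and 78 of the 81 changes were negative. None of the 3 positive changes passed the test. Many ribosomal protein genes have near-identical processed copies in the genome, so how reads were divided among copies is uncertain for single genes.

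The share of all counts that fell on these genes showed the same difference. It ran from 10.5 to 14.3% in vehicle libraries (median 12.4%) and from 8.58 to 11.7% in combination libraries (median 9.997%). Vancomycin libraries had a median of 12.6% (10.1 to 13.5%) and PFOS libraries one of 10.4% (7.93 to 12.1%), or 10.5% (9.60 to 12.1%) without PFOS library 31. The combination range overlapped the vehicle range only in its upper part, and its lowest libraries included the 172700-count one.

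**Figure D2:**
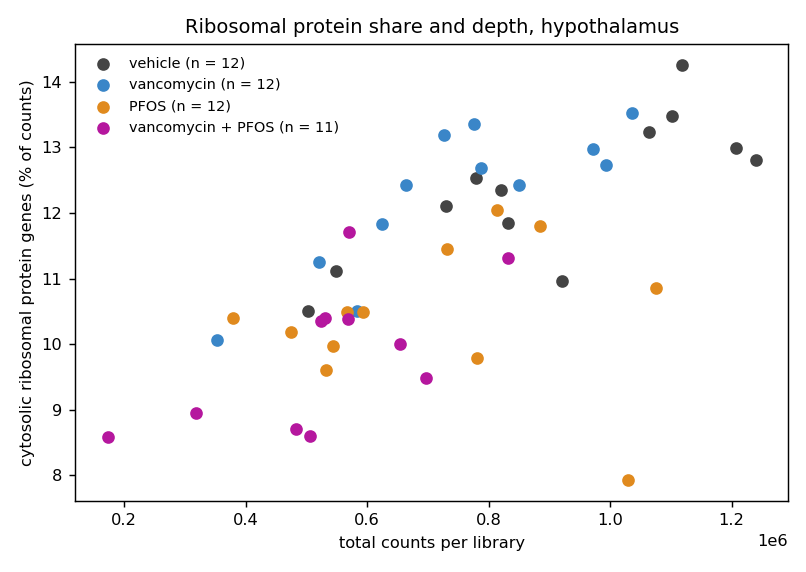
Each point is 1 hypothalamus library, with total counts on the x axis and the share of counts from cytosolic ribosomal protein genes, in percent, on the y axis, coloured by treatment. The share tended to be higher in deeper libraries, with the library labelled PFOS 31, which lacked most hypothalamic peptide transcripts, as an exception at 7.93%, and most combination libraries (8.58 to 11.7%) lay below vehicle and vancomycin libraries of like depth.

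Depth moved with this group inside the treatments as well. In the covariate fit, which measures the change per doubling of total counts within groups, 63 of the 81 genes were higher and 1 lower in deeper libraries, with a median of 0.27 log2 units per doubling. Over all genes, 762 were higher (11.6%) and 518 lower (7.85%) with depth. Leaving out PFOS library 31 made these numbers 68 and 1 of the 81, and 837 (12.8%) and 645 (9.87%) of all genes. With the covariate in the model, 8 of the 81 fell with the combination, against 0.637% of all genes, and the median change became -0.21. It was also 8 without PFOS library 31 (0.535% of all genes lower). The 8 with all libraries included Rpl7, Rpl34, Rpl23a, Rplp0, Rps16, Rps23 and Rps27. Rplp0 was not among those called without PFOS library 31. The number became 14 without vehicle library 7, 13 without combination library 48, 6 without vehicle library 11 and 1 to 5 without any other single library of the compared groups.

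Rpl7, a protein of the large subunit, was at 962 to 1372 CPM in vehicle libraries (median 1176) and at 797 to 999.8 CPM in combination libraries (median 879). All 11 combination libraries were below the vehicle mean and 10 were below every vehicle library. Its log2 change was -0.41 ± 0.06 (SE; adjusted p = 1.55e-05) and -0.32 ± 0.06 with the covariate (adjusted p = 0.00989). Rpl34, also of the large subunit, was at 1197 to 1537 CPM with vehicle (median 1359) and 863 to 1236 CPM with both compounds (median 1034), a log2 change of -0.37 ± 0.06 (adjusted p = 3.35e-05), or -0.28 ± 0.06 with the covariate (adjusted p = 0.0126).

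Rps16, a protein of the small subunit, was at 2230 to 3241 CPM with vehicle (median 2957) and at 1645 to 2527 CPM with both compounds (median 2027). It fell by 0.48 ± 0.08 on the log2 scale (adjusted p = 6.98e-05), and by 0.37 ± 0.09 with the covariate (adjusted p = 0.0298). Rpl23a, of the large subunit, fell by 0.49 ± 0.08 (adjusted p = 6.26e-05), and by 0.28 ± 0.07 with the covariate (adjusted p = 0.0466). In both genes 9 of the 11 combination libraries were below every vehicle library. Rps27, also of the small subunit, changed by -0.25 ± 0.06 (adjusted p = 0.00295) and by -0.27 ± 0.07 with the covariate.

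Transcription start regions of these genes were examined because their transcripts are known for a pyrimidine tract at the 5′ end. The windows hold 30 bases before and 25 bases from the RefSeq start (assembly GRCr8) on the gene's strand, and CTTTC, searched on both strands, is in capitals where it lies on the gene's strand. Of the 8 genes lower in both fits, 5 had an entry and 3 of these held the motif. Rplp0 and Rpl34 did not, and Rpl7 and Rpl23a were among those with no entry. CTTTC is not the whole tract: the windows of Rpl34 and Rplp0 hold other runs of C and T.
Rps27, chr2:177964582-177964636, minus strand: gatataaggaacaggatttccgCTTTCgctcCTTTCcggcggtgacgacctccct
Rps16, chr1:92770628-92770682, plus strand: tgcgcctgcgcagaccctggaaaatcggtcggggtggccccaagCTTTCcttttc
Rps23, chr2:23814487-23814541, plus strand: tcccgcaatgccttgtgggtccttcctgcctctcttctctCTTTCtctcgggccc
Rpl34, chr2:221962259-221962313, minus strand: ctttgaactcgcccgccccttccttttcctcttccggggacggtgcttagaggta
Rplp0, chr12:46718366-46718420, minus strand: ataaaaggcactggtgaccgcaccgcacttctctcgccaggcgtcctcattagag

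Of the 62 ribosomal protein genes with an entry, 32 held CTTTC on the gene's strand (51.6%), or 53.2% on either strand. Over the 5101 tested genes with an entry the shares were 5.6% and 9.9%, and over all 33469 RefSeq promoters provided they were 7.1% and 13.8%. A match is a description of letters and not a measured site.

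Among 59 translation factor genes tested, 10 fell (5.14% of all genes were lower) and 0 rose, and the median log2 change was -0.05. The 10 included elongation factors. Eef1a1, which brings aminoacyl-tRNA to the ribosome, was at 2700 to 4818 CPM with vehicle (median 3525) and 1906 to 3206 CPM with both compounds (median 2445). It fell by 0.62 ± 0.11 on the log2 scale (adjusted p = 0.000347), but the change was -0.30 ± 0.10 with the covariate (adjusted p = 0.118). Eef2, the translocation factor, fell by 0.22 ± 0.05 (adjusted p = 0.00187, 0.0694 with the covariate), and 10 of 11 combination libraries were below every vehicle library. Eif2b2, a subunit of the exchange factor for initiation factor eIF2, had nearly equal changes in the fits, at -0.64 ± 0.14 (adjusted p = 0.00202) and -0.62 ± 0.17 (adjusted p = 0.0559). None of the 59 passed the threshold with the covariate (0.788% of all genes did). Eef1a1 also has near-identical copies. CTTTC was present in 2 of the 8 windows of the translation factor genes that fell.

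Of 69 mitochondrial ribosomal protein genes tested, 3 rose and 0 fell, against 3.00 and 5.14% of all genes, and the median log2 change was -0.01. The 3 were Mrpl17, Mrpl14 and Mrpl1, with log2 changes of 0.24 ± 0.06, 0.22 ± 0.07 and 0.37 ± 0.12. None of the 69 passed with the covariate (0.788% of all genes did). Nuclear-encoded genes of oxidative phosphorylation went both ways, with 7 of 81 higher (3.00% of all genes), 6 lower (5.14%) and a median of -0.00. Ndufb4, a complex I subunit, rose by 0.27 ± 0.06 on the log2 scale (adjusted p = 0.00417), whereas Atp5f1e, the epsilon subunit of ATP synthase, fell by 0.32 ± 0.07 (adjusted p = 0.00103). With the covariate 0 of the 81 passed (0.788% of all genes did).

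Of 37 proteasome genes, 4 rose (3.00% of all genes did) and 0 fell, with a median log2 change of 0.09. Psmc1, an ATPase subunit of the regulatory particle, was at 496 to 840 CPM with vehicle (median 688) and at 768 to 1108 CPM with both compounds (median 887). Combination libraries were all above the vehicle mean, 9 of them above every vehicle library, a log2 rise of 0.43 ± 0.08 (adjusted p = 0.00049). Psmc3 and Psmc5, other ATPases of the same ring, rose by 0.31 ± 0.07 and 0.23 ± 0.07, and Psma7, an alpha subunit of the core, by 0.17 ± 0.05. None of the 37 passed with the covariate (0.788% of all genes did), where Psmc1 changed by 0.28 ± 0.09 (adjusted p = 0.0943).

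Of 15 cytosolic chaperone genes, 2 rose (3.00% of all genes) and 1 fell (5.14%). Hspa8, the constitutive Hsc70 chaperone, was at 3847 to 5966 CPM with vehicle (median 4884) and 5023 to 7553 CPM with both compounds (median 6048), a log2 rise of 0.30 ± 0.07 (adjusted p = 0.00159, 0.108 with the covariate). Stip1, which links Hsp70 and Hsp90, rose by 0.23 ± 0.07. Hsp90ab1, a cytosolic Hsp90, fell by 0.20 ± 0.06 (adjusted p = 0.0409), and its change was -0.01 ± 0.06 with the covariate. Of 19 genes of endoplasmic reticulum folding and stress, 1 fell, Sdf2l1, at -0.78 ± 0.20 (adjusted p = 0.00903), which is near the 5.14% of all genes lower.

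**Figure D3:**
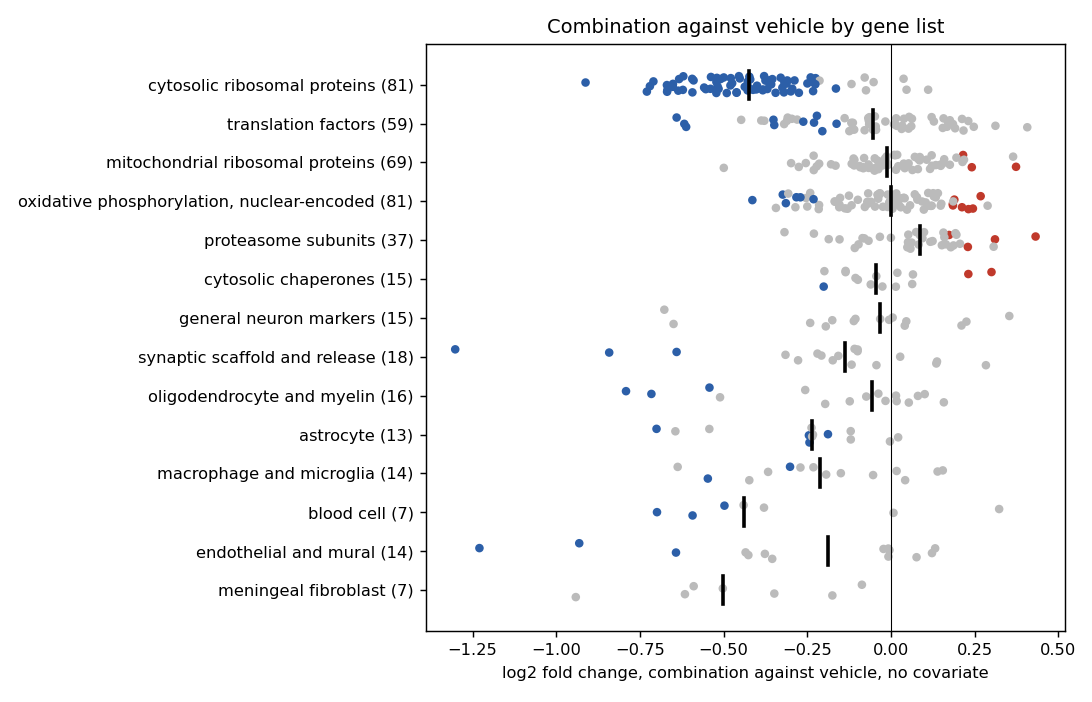
Log2 fold changes of combination against vehicle without a depth term (x axis) for the tested genes of 14 lists (rows, with the number tested in brackets); red points were higher and blue points lower at an adjusted p under 0.05, grey points did not pass, and black bars are medians. Cytosolic ribosomal proteins, with a median of -0.42, are the row in which most points are blue, while proteasome subunits have a median of 0.09.

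A total of 41 genes passed in both fits, and 5 of them passed in each of the 59 alternative settings run, leave-one-out fits included, and in both fits without PFOS library 31: Clu, Prdx6, Enho, Rpl7 and Bmerb1. Clu encodes clusterin, a secreted chaperone made by astrocytes. It was at 1519 to 2263 CPM with vehicle (median 1727) and at 1312 to 1616 CPM with both compounds (median 1469). All 11 combination libraries were below the vehicle mean and 8 below every vehicle library. The log2 change was -0.29 ± 0.06 (adjusted p = 0.00109) and -0.35 ± 0.07 with the covariate (adjusted p = 0.00588).

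Prdx6, a peroxiredoxin that reduces phospholipid peroxides, was at 106 to 198 CPM with vehicle (median 136) and 56.9 to 133 CPM with both compounds (median 95.2). The groups overlapped, with 9 of 11 combination libraries below every vehicle library. It fell by 0.56 ± 0.10 on the log2 scale (adjusted p = 0.000184), and by 0.55 ± 0.12 with the covariate (adjusted p = 0.0112). Enho, which encodes the peptide adropin, was at 196 to 317 CPM with vehicle (median 254) and at 161 to 239 CPM with both compounds (median 203). Its log2 change was -0.38 ± 0.08 (adjusted p = 0.0012) and -0.43 ± 0.09 with the covariate (adjusted p = 0.0112), with all 11 libraries below the vehicle mean.

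Bmerb1, which encodes a protein with a bMERB domain, was higher, at 1324 to 1631 CPM with both compounds (median 1413) against 811 to 1335 CPM with vehicle (median 1140). All 11 combination libraries were above the vehicle mean and 9 above every vehicle library. The log2 change was 0.34 ± 0.08 (adjusted p = 0.00231) and 0.39 ± 0.09 with the covariate (adjusted p = 0.0176).

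**Figure D4:**
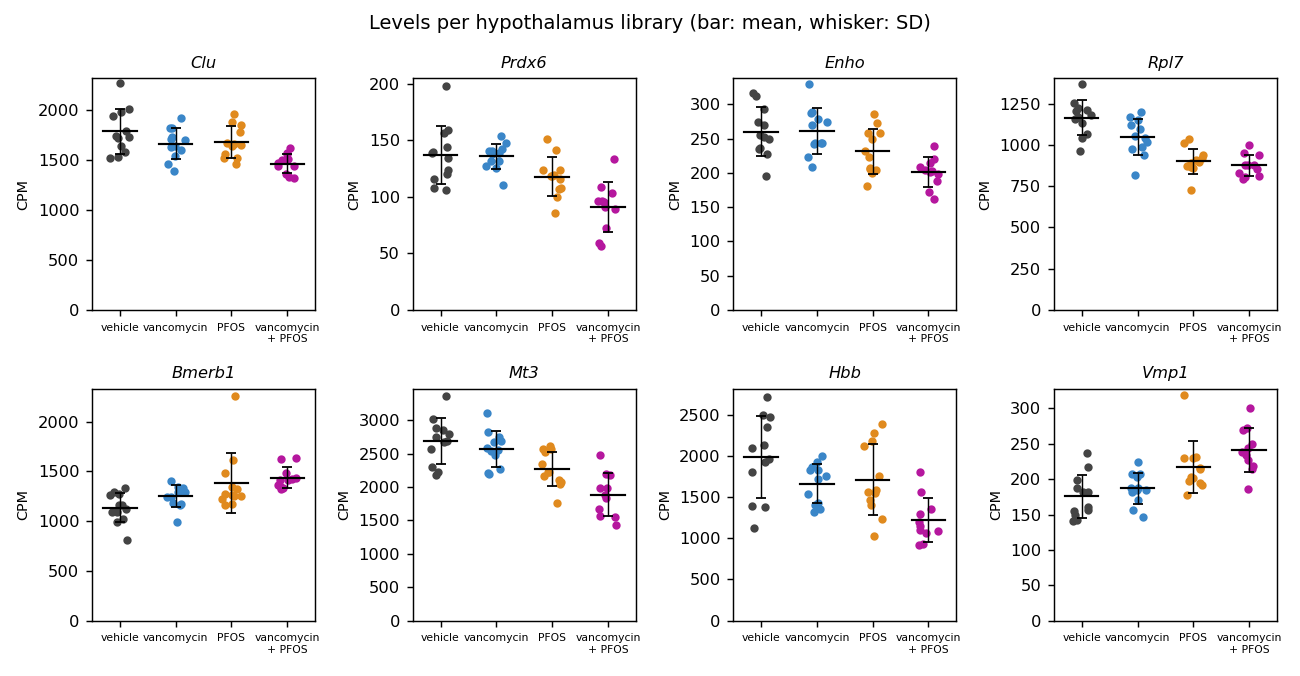
Levels in CPM (y axes, from 0) of 8 genes in each hypothalamus library, by treatment (x axes), with the mean as a bar and the SD as whiskers. In Clu, Prdx6, Enho, Rpl7, Mt3 and Hbb the combination libraries lie lowest on average, in Bmerb1 and Vmp1 highest; Rpl7 is about as low with PFOS alone (median 893 CPM) as with both compounds (median 879 CPM).

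Further genes chosen by the naming rule fell in both fits. Mt3, the brain metallothionein that binds zinc and copper, was at 2182 to 3369 CPM with vehicle (median 2719) and 1427 to 2473 CPM with both compounds (median 1874), a log2 change of -0.51 ± 0.07 (adjusted p = 1.55e-05), or -0.34 ± 0.07 with the covariate (adjusted p = 0.0126). Ndrg2, a gene rich in astrocytes, was at 2221 to 3453 CPM with vehicle (median 2702) and 1961 to 2765 CPM with both compounds (median 2264), and only 1 combination library was below every vehicle library. Its change was larger with the covariate, at -0.36 ± 0.07 (adjusted p = 0.00476) against -0.23 ± 0.06 without (adjusted p = 0.0187). Tmsb4x, which encodes the actin-binding peptide thymosin beta 4, fell by 0.35 ± 0.05 (adjusted p = 1.79e-05), with 10 of 11 combination libraries below every vehicle library. S100a13, a calcium-binding protein of the S100 family, fell by 0.45 ± 0.08, and Aamdc by 0.59 ± 0.13.

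Besides Bmerb1, 6 genes rose in both fits. Vmp1, an endoplasmic reticulum protein needed for autophagosome formation, was at 140 to 237 CPM with vehicle (median 171) and 187 to 301 CPM with both compounds (median 239), a log2 change of 0.46 ± 0.09 (adjusted p = 0.000353), or 0.40 ± 0.10 with the covariate (adjusted p = 0.04). Atp6v1c1, a subunit of the proton pump that acidifies lysosomes and vesicles, rose by 0.39 ± 0.09 in the first fit and 0.39 ± 0.10 in the second. Dnajc7, a co-chaperone of Hsp70 and Hsp90, rose by 0.42 ± 0.09, with 9 of 11 combination libraries above every vehicle library. Apbb1, an adaptor that binds the amyloid precursor protein, rose by 0.44 ± 0.08, and Nsg1, a protein of neuronal endosomes, by 0.26 ± 0.07. Lrrc61 rose by 0.74 ± 0.17, from a median of 24.4 to one of 36.4 CPM.

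The remaining genes lower in both fits are named after their values were seen. They were Cxxc5, Dbi, Ddt, Ecrg4, Entpd2, Fcer1g, Fxyd1, Gng5, Hadh, Hbb-b1, Kdr, Kiaa0408L, Pdcl, Pros1, S100b, Timp4, Tmem176b, Tst and the ribosomal protein genes given above. Of these, Ecrg4, Entpd2, Gng5, Hbb-b1, Pros1, S100b and Rplp0 no longer passed with the covariate without PFOS library 31. Dbi, the acyl-CoA-binding protein, was at 1023 to 2118 CPM with vehicle (median 1494) and 825 to 1186 CPM with both compounds (median 1027), a log2 change of -0.53 ± 0.09. Timp4, an inhibitor of metalloproteinases, fell from a median of 56.1 to one of 30.1 CPM (-0.73 ± 0.15). Ddt, D-dopachrome tautomerase, fell by 0.56 ± 0.09, and 9 of 11 combination libraries were below every vehicle library. Tst, a mitochondrial sulfurtransferase, fell by 0.30 ± 0.08, and Hadh, an enzyme of mitochondrial fatty acid oxidation, by 0.37 ± 0.12.

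When only libraries in the depth range covered by both groups were kept (6 vehicle and 8 combination libraries, from 502061 to 832058 counts), 12 genes passed, 2 higher and 10 lower. All 12 were among the 41: Aamdc, Clu, Ddt, Enho, Ndrg2, Prdx6, Rpl7, Rps27, S100a13 and Tmem176b were lower, and Bmerb1 and Lrrc61 higher. Mean totals in that subset were still unequal, at 702120 with vehicle and 610520 with both compounds. Clu changed there by -0.32 ± 0.07 and Prdx6 by -0.52 ± 0.11 on the log2 scale. Without the 4 libraries of unusual barcode, 307 genes passed.

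Of 13 astrocyte markers, 4 fell (5.14% of all genes were lower) and 0 rose, with a median log2 change of -0.24 (-0.31 with the covariate), and 12 of the 13 changes were negative. S100b, a calcium-binding protein of astrocytes, was at 2692 to 4534 CPM with vehicle (median 3740) and at 2840 to 3645 CPM with both compounds (median 3061). All 11 combination libraries were below the vehicle mean but 0 were below every vehicle library, and the log2 change was -0.24 ± 0.07 (adjusted p = 0.0264), or -0.32 ± 0.08 with the covariate (adjusted p = 0.0439). Aldoc, the brain aldolase, fell by 0.19 ± 0.05, Agt, angiotensinogen, by 0.25 ± 0.08, and Slc4a4, a bicarbonate transporter, by 0.70 ± 0.22. The 14 list genes in the table made up 1.23 to 1.97% of counts in vehicle libraries (median 1.56%) and 1.28 to 1.58% in combination libraries (median 1.46%).

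This list depends on single libraries. The number of astrocyte genes lower went from 4 to 1 without vehicle library 1 or 12, or without combination library 39, 42 or 47, and to 2 without vehicle library 3, 4 or 10, or combination library 37, 38 or 46. With the covariate 2 were lower, S100b among them (0.637% of all genes were lower). The 2 became 1 without PFOS library 31, where S100b changed by -0.31 ± 0.08 (adjusted p = 0.0635), and 0 or 1 without any 1 of vehicle libraries 1, 2, 3, 4, 8, 9, 10 and 12 or combination libraries 37, 38, 39, 41, 42, 43, 45, 46 and 47. Within groups, the list's median change per doubling of depth was -0.10.

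Of 7 blood cell transcripts tested, 3 fell (5.14% of all genes were lower) and 0 rose, and the median log2 change was -0.44. Hbb, a beta globin, was at 1127 to 2719 CPM with vehicle (median 2028) and 916 to 1806 CPM with both compounds (median 1143), a log2 change of -0.70 ± 0.14 (adjusted p = 0.000713, 0.0624 with the covariate). Hbb-b1 fell by 0.59 ± 0.12 and, with the covariate, by 0.58 ± 0.15 (adjusted p = 0.0467, or 0.0603 without PFOS library 31), and Hba-a1 fell by 0.50 ± 0.14. Globin genes have near-identical copies, so their single values are uncertain. The 13 list genes in the table made up 0.341 to 0.877% of counts with vehicle (median 0.628%) and 0.344 to 0.674% with both compounds (median 0.465%), and Hbe2 was at 0. The part of blood left in the tissue in these results was not tested.

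Of 14 endothelial and mural genes, 3 fell (Tagln, Kdr and Abcc9) and 0 rose. This and the next 2 lists are read against 5.14% of all genes lower and, with the covariate, 0.637%. In the endothelial and mural list 11 of the 14 changes were negative, with a median of -0.19 (-0.25 with the covariate). Tagln, a smooth muscle actin-binding protein, was at 55.9 to 169 CPM with vehicle (median 78.9) and 28.7 to 77.2 CPM with both compounds (median 39.8), a log2 change of -0.93 ± 0.19 (adjusted p = 0.00121, 0.188 with the covariate). Kdr, the endothelial receptor for vascular endothelial growth factor, fell by 0.64 ± 0.19 (adjusted p = 0.0284), and by 0.87 ± 0.22 with the covariate (adjusted p = 0.036). Of 14 macrophage and microglia genes, 2 fell, Fcer1g, the common gamma chain of Fc receptors, by 0.30 ± 0.10 and the complement gene C1qb by 0.55 ± 0.18. Fcer1g fell by 0.45 ± 0.10 with the covariate (adjusted p = 0.0247). In the macrophage and microglia list 10 of the 14 changes were negative, with a median of -0.21 (-0.33 with the covariate). Of 15 interferon and antigen presentation genes, 2 fell. Here 12 of the 15 changes were negative, with a median of -0.20 (-0.29 with the covariate). B2m, the light chain of class I molecules, was at 622 to 1559 CPM with vehicle (median 1007) and 415 to 772 CPM with both compounds (median 480.1), a log2 change of -0.81 ± 0.14 (adjusted p = 0.00015), or -0.52 ± 0.14 with the covariate (adjusted p = 0.056).

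Of 16 oligodendrocyte and myelin genes, 3 fell (5.14% of all genes were lower) and 0 rose, with a median of -0.06. Mobp, the myelin-associated oligodendrocyte basic protein, was at 90.2 to 236 CPM with vehicle (median 128) and 56.9 to 104 CPM with both compounds (median 85.5). The log2 change was -0.79 ± 0.16 (adjusted p = 0.000956) and -0.37 ± 0.15 with the covariate (adjusted p = 0.248). Mbp, myelin basic protein, fell by 0.54 ± 0.14, and Cldn11, the tight junction protein of myelin, by 0.72 ± 0.23. With the covariate 0 of the 16 passed (0.788% of all genes did).

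Of 15 general neuron markers and of 15 genes of GABA and glutamate transmission, 0 passed in either direction in either fit, against 8.14 and 0.788% of all genes. Both lists are short, so a count of 0 says little. The median log2 change was -0.03 for neuron markers (0.16 with the covariate) and 0.02 for transmission genes (-0.04). Within groups, 9 of the 15 neuron markers were higher in deeper libraries (11.6% of all genes were), with a median of 0.20 per doubling. Of 18 genes of synaptic scaffolds and release, 3 fell (5.14% of all genes were lower). Shank2, a scaffold of excitatory synapses, was at 21 to 52.2 CPM with vehicle (median 30.1) and 9.58 to 33.3 CPM with both compounds (median 16.9), a change of -0.84 ± 0.20 (adjusted p = 0.00341, 0.194 with the covariate). Shank1, a related scaffold, fell by 1.30 ± 0.42 and its change was -0.09 ± 0.41 with the covariate, and Pclo, of the presynaptic zone, fell by 0.64 ± 0.20. Rab3a, a synaptic vesicle GTPase, rose with the covariate only, by 0.35 ± 0.09 (adjusted p = 0.043; 0.152% of all genes were higher with it).

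Among 22 hypothalamic neuropeptide genes, 1 fell and 0 rose, near the 5.14% of all genes lower and 3.00% higher, with a median log2 change of 0.04. The 1 was Pomc, the precursor of melanocortins in arcuate neurons and also an abundant pituitary transcript. In PFOS library 31, which lacked most peptide transcripts, Pomc was still at 86.2 CPM. Pituitary markers made up 0.490% of counts there and 0.482 to 0.981% in the other hypothalamus libraries. Which cells gave the Pomc signal was not tested. Pomc was at 100.4 to 332 CPM with vehicle (median 166) and at 73.4 to 179.6 CPM with both compounds (median 115). The groups overlapped, with 2 of 11 combination libraries below every vehicle library, and the log2 change was -0.54 ± 0.16 (adjusted p = 0.0308, 0.206 with the covariate). With the covariate 0 of the 22 passed (0.788% of all genes did).

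The peptide most tied to the thyroid axis, Trh (thyrotropin-releasing hormone), was at 146 to 277 CPM with vehicle (median 220) and at 185 to 281 CPM with both compounds (median 246), a change of 0.15 ± 0.16 (adjusted p = 0.622, 0.885 with the covariate). Gal (galanin) was at 435 to 808 CPM with vehicle (median 635) and at 674 to 1089 CPM with both compounds (median 752). In each of the 11 combination libraries it was above the vehicle mean, but the change of 0.35 ± 0.20 did not pass (adjusted p = 0.285). Without PFOS library 31, where Gal was at 43.6 CPM, the change was 0.36 ± 0.11 and passed (adjusted p = 0.0229), but with the covariate it was 0.22 ± 0.12 (adjusted p = 0.453). Avp, the vasopressin precursor, had a change of -0.51 ± 0.30 (adjusted p = 0.307, or 0.131 without PFOS library 31). Oxt, Sst, Npy, Agrp, Cartpt, Hcrt and Pmch had changes between -0.18 and 0.32, with adjusted p from 0.582 to 0.995. Among feeding-related receptors, Npy1r, a neuropeptide Y receptor, rose by 0.61 ± 0.18 (adjusted p = 0.0218, 0.17 with the covariate), from a median of 19.3 to one of 30.6 CPM.

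**Figure D5:**
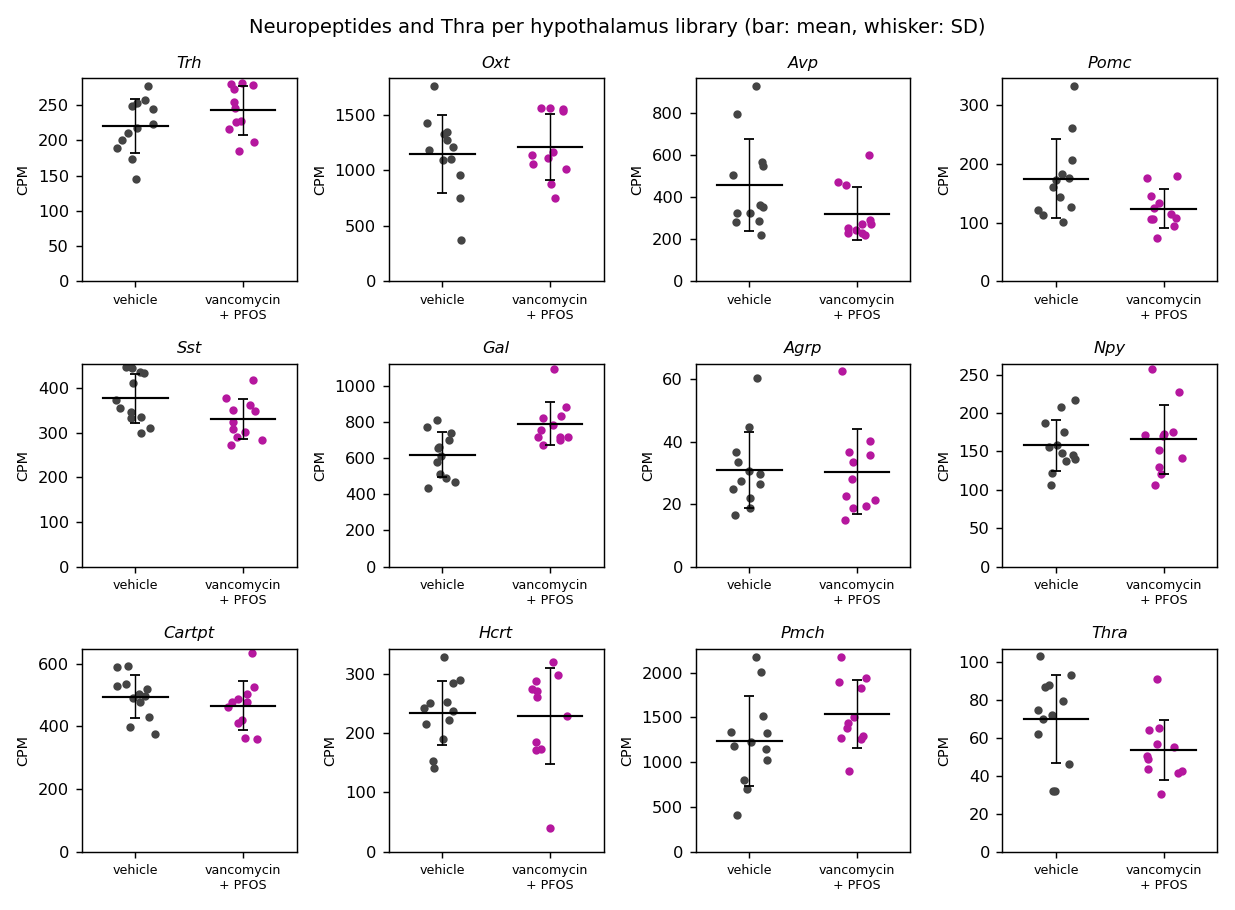
Levels in CPM (y axes, from 0) of 11 neuropeptide genes and the thyroid hormone receptor gene Thra in each vehicle and combination library (x axes), with the mean as a bar and the SD as whiskers. The groups overlap in all 12 genes; Gal is the gene whose 11 combination libraries all lie above the vehicle mean (lowest 674 CPM), and Pomc is lower on average.

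Genes of thyroid hormone action gave 1 fall and 0 rises among 15 tested (5.14% of all genes were lower), with a median log2 change of -0.25. The 1 was Rxrb, a retinoid X receptor that pairs with thyroid hormone receptors, with a median of 19.1 CPM with vehicle (3.99 to 31.9) and 9.41 CPM with both compounds (0 to 16.3). It fell by 0.90 ± 0.27 (adjusted p = 0.0276), and its change was -0.29 ± 0.29 with the covariate. Thra, the main receptor gene of brain, was at 32.1 to 103 CPM with vehicle (median 73.4) and at 30.7 to 90.9 CPM with both compounds (median 50.5), a change of -0.44 ± 0.17 (adjusted p = 0.0975), or -0.21 ± 0.19 with the covariate (adjusted p = 0.709). Dio2, the activating deiodinase, had a change of -0.04 ± 0.19 (adjusted p = 0.949), and Klf9, a target of the receptors, one of -0.29 ± 0.18 (adjusted p = 0.314). Thrb and Hr were too low to test, with 270 and 176 counts over all 47 hypothalamus libraries.

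Of 24 genes of the NRF2 oxidative stress response, 3 fell (5.14% of all genes were lower) and 0 rose, with a median of -0.09. Besides Prdx6 these were Gpx1, a glutathione peroxidase, by 0.55 ± 0.12 (adjusted p = 0.00135), and Sod1, the cytosolic superoxide dismutase, by 0.49 ± 0.11 (adjusted p = 0.00216). With the covariate Prdx6 alone passed (0.637% of all genes were lower). Of 18 PPAR and CAR targets, which PFOS is known to induce in liver, 0 rose and 2 fell, against 3.00 and 5.14% of all genes. In this list 17 of the 18 changes were negative, with a median of -0.18 (-0.27 with the covariate). Fabp5, a fatty acid-binding protein, was at 212 to 373 CPM with vehicle (median 269) and 149 to 225 CPM with both compounds (median 179). In 10 of 11 combination libraries it was below every vehicle library, a change of -0.61 ± 0.10 (adjusted p = 0.000104), or -0.36 ± 0.10 with the covariate (adjusted p = 0.0652). Eci2, an enoyl-CoA isomerase, fell by 0.41 ± 0.12.

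Among 18 cholesterol synthesis and uptake genes, Apoe, the main lipid carrier of brain, was the 1 that fell (5.14% of all genes were lower). It was at 2950 to 8309 CPM with vehicle (median 5430) and 2612 to 5111 CPM with both compounds (median 3044), a change of -0.64 ± 0.16 (adjusted p = 0.00728), or -0.25 ± 0.15 with the covariate (adjusted p = 0.522). Of 10 transporter genes for amino acids and neutral solutes, 1 rose and 1 fell, against 3.00 and 5.14% of all genes. Slc3a1, a subunit of a cystine and dibasic amino acid transporter, rose by 0.75 ± 0.17 (adjusted p = 0.0044). Slc38a1, a glutamine transporter, fell by 0.61 ± 0.20 (adjusted p = 0.0451). Slc3a1 was at 416 to 1128 CPM with vehicle (median 620) and 799.8 to 1462 CPM with both compounds (median 1148). Its change with the covariate was 0.52 ± 0.19 (adjusted p = 0.187).

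The largest changes among called genes, by fold, were taken with the naming rule's minimum count. The 10 largest falls were in Pou3f3, Dtx3l, Shank1, Pdcl, Abcc9, Pnma8b, Ppp6r3, Sesn3, Vps26b and Qk, with log2 changes from -1.37 to -1.16. Pou3f3, a transcription factor of neurons, had a median of 18.3 CPM with vehicle (0 to 39.3) and of 4.31 CPM with both compounds (0 to 19.6), and its change went from -1.37 ± 0.41 to -0.23 ± 0.41 with the covariate. Pdcl, a co-chaperone of G protein subunits, was the member of this group that also passed with the covariate, at -1.25 ± 0.23 and -1.09 ± 0.27 (adjusted p = 0.000313 and 0.036). Qk, an RNA-binding protein of oligodendrocytes and astrocytes, had 6 of 11 combination libraries below every vehicle library (-1.16 ± 0.31).

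The 10 largest rises were in Rpusd2, Igsf3, Agk, Tmem215, Slc3a1, Lrrc61, Coa5, B4galt6, Inpp5b and Npy1r, with log2 changes from 1.06 to 0.61. Coa5, an assembly factor of cytochrome oxidase, was at 224 to 462 CPM with vehicle (median 367) and 393 to 698 CPM with both compounds (median 531). In 9 of 11 combination libraries it was above every vehicle library, a rise of 0.66 ± 0.16 (adjusted p = 0.00566, 0.222 with the covariate). B4galt6, which makes lactosylceramide, rose by 0.64 ± 0.14 (adjusted p = 0.00279). Lrrc61 was the member of this group that passed with the covariate.

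Whether the pair of compounds differed from the sum of the single ones was tested as an interaction in the same fit. No gene passed: 0 of 6596 (0%) in edgeR with and without the covariate, in DESeq2 and in limma voom. At an unadjusted p under 0.05 there were 278 genes in edgeR, 307 with the covariate, 267 in DESeq2 and 394 in limma voom. Counts near these arise over 6596 genes when no gene differs, so they are not read as a signal. How large an interaction could be detected was not simulated. The fit without PFOS library 31 also gave 0 of 6537 (0%), with 256 at an unadjusted p under 0.05. The smallest p was that of Ptprm, a receptor tyrosine phosphatase, with an interaction of 0.86 ± 0.23 on the log2 scale (adjusted p = 0.971) and medians of 33.4, 23, 22.5 and 36.7 CPM with vehicle, vancomycin, PFOS and both. Next were Raly, an RNA-binding protein, with -0.73 ± 0.21, and Etv1, a transcription factor of the ETS family, with -0.91 ± 0.26, both also at an adjusted p of 0.971. Etv1 was at 246 CPM in PFOS library 31 and at 55.3 to 169 CPM in the other PFOS libraries, and its interaction was -0.71 ± 0.21 without that library.

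The single compounds give the same libraries another reading. The comparisons share vehicle or combination libraries, so their values are set side by side only. Against vehicle, PFOS alone called 288 genes (4.37%), 76 higher (1.15%) and 212 lower (3.21%), and 2 (0.0303%) with the covariate. Without PFOS library 31 the 288 became 54 (0.826%), 13 higher and 41 lower (0.627%), of which 52 were among the 288, and the 2 became 1 (0.0153%). Vancomycin alone called 0 (0%). The combination differed from vancomycin alone in 516 genes (7.82%), 194 higher (2.94%) and 322 lower (4.88%). With the covariate it differed in 121 (1.83%), 23 higher (0.349%) and 98 lower (1.49%). With PFOS library 31 left out, which is in neither group, the first count was 559 (8.55%). From PFOS alone it differed in 0 (0%), with and without that library. With the covariate 1 gene (0.0152%) differed between the combination and PFOS alone, Padi2, an arginine deiminase of glia named after its values were seen, at -0.74 ± 0.14 (adjusted p = 0.0197). When PFOS library 31 was left out it was again 1 gene (0.0153%), Padi2, at -0.77 ± 0.14 (adjusted p = 0.00517).

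For ribosomal protein genes, PFOS alone lowered 53 of 81 (3.21% of all genes were lower) with a median of -0.30, and the combination against vancomycin lowered 71 (4.88%) with a median of -0.41. When PFOS library 31 was left out, PFOS alone lowered 12 (0.627%) with a median of -0.27, and the combination against vancomycin 72 (5.11%) with a median of -0.41. Vancomycin alone called 0, with a median of 0.00, and the combination against PFOS alone called 0, with a median of -0.13 (-0.15 without that library). With that library left out and the covariate in the model, the combination against vancomycin lowered 57 of the 81, with a median of -0.26. Over all 6537 genes, 103 were lower in that comparison. The same fit gave 8 lower against vehicle (0.535% of all genes, median -0.18) and 1 lower with PFOS alone (0.0153% of all genes, median -0.14). It called 0 with vancomycin alone (median 0.09) and 0 for the combination against PFOS alone (median -0.06). The values that follow are without the covariate. Rpl7 changed by -0.37 ± 0.06 with PFOS alone (-0.34 ± 0.06 without that library), by -0.15 ± 0.06 with vancomycin alone and by -0.41 ± 0.06 with both. Bmerb1 changed by 0.29 ± 0.08 (0.21 ± 0.06 without that library), 0.14 ± 0.08 and 0.34 ± 0.08. Clu changed by -0.09 ± 0.06, -0.10 ± 0.06 and -0.29 ± 0.06, and against PFOS alone by -0.20 ± 0.06 (adjusted p = 0.479). Prdx6 changed by -0.23 ± 0.09, -0.01 ± 0.09 and -0.56 ± 0.10, and against PFOS alone by -0.34 ± 0.10 (adjusted p = 0.479). Both genes thus passed with both compounds and not with either alone, and the differences themselves did not pass, with or without PFOS library 31.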

How the data were processed

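Polyadenylated RNA was measured by BRB-seq, and the authors deposited counts per gene and library as whole numbers, with no normalization apparent in the values. BWA 0.7.4.4 and the build rn6 are listed, per the submitters' processing notes; how reads became counts is not given in the sources used here. The 17483 genes of the table were used by symbol.

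Libraries were grouped by the labels. The 47 hypothalamus libraries with at least 100000 counts were fitted in 1 model of 4 treatment groups in R 4.3.3 with edgeR 4.0.16: filterByExpr at a minimum count of 10, TMM scaling and the robust quasi-likelihood F test, with Benjamini-Hochberg adjustment over 6596 genes and a threshold of 0.05. The SE is the size of the log2 change divided by the square root of F. CPM values use TMM-scaled library sizes and are not comparable between genes. Total counts were compared by permutation. DESeq2 1.42.0 and limma 3.58.1 were alternatives.

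In simulated data for this comparison (6596 genes), 20, 52, 94 and 100% of genes changed 1.25-, 1.5-, 2- and 4-fold were called without the covariate and 18, 42, 90 and 100% with it. In each fit 5 unchanged genes were called. The simulated levels did not depend on depth, unlike those of the data, so these rates do not show how either fit performs under the depth gap.

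The comparison, the 31 gene lists, the covariate and the rule for named genes were chosen with earlier results of these data known. The rule took the 10 largest rises and falls whose mean count reached 5 in the group with more, the 10 rises and falls with the smallest covariate p among genes called in both fits, set genes of the hypothalamic and thyroid axes, up to 4 called members of each list, and the 3 smallest interaction p-values. The depth slope within groups and the fits without PFOS library 31 were added after the data were seen. Neurons, vessels and other cells were not separated, and the other tissues were not analysed here. Values of some genes are not reported here.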

Additional observations from a re-analysis of the deposited data

How the results depend on the processing

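The 537 genes called became 52 with log2 total counts as a covariate, 356 with no filter on low counts, 259 at a minimum depth of 500000 counts, 255 when every library was thinned to the shallowest, 12 in the depth range of both groups, 299 with the barcode's G and C number as a covariate and 307 without libraries of unusual barcode. The split of higher and lower calls was 95 and 261 with no filter, 112 and 147 at 500000 counts and 95 and 160 when thinned. The other 6 alternatives stayed within 1.5 times. Of 81 ribosomal protein genes, 73 were lower (5.14% of all genes), 8 with the covariate (0.637%), 2 in the shared depth range, where 12 genes were called in all, and 54 to 74 in the others. Astrocyte genes lower went from 4 to 2 with the depth or the barcode covariate, to 1 at 500000 counts, with all libraries kept or without unusual barcodes, and to 0 in the shared depth range. These list counts are to be read beside the counts over all genes given above. Without PFOS library 31, an alternative added after the data were seen, and with the depth covariate, 50 genes were called, 8 ribosomal protein genes and 1 astrocyte gene lower; without the covariate these counts stayed within 1.5 times. The fits at 500000 counts, in the shared depth range and without unusual barcodes held fewer libraries, and the thinned fit fewer counts. Those with no filter on low counts or with the depth or barcode covariate kept all 47 libraries. The cause of the changes in these counts was not tested.

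Leaving out 1 library at a time, in both fits, gave 10 to 696 genes called, 1 to 74 ribosomal protein genes lower and 0 to 6 astrocyte genes lower. Without the covariate the range was 343 (without vehicle library 1) to 696 (without vehicle library 11), and with it 10 (without vehicle library 4) to 78 (without vehicle library 8). Of the 41 genes called in both fits, 33 passed in every fit that left out 1 library, and 8 in every such fit with the covariate. The interaction was at 0 genes in every setting in which it was fitted. The difference in total counts was -294913 at a minimum of 500000 counts and -417133 with all libraries kept (permutation p = 0.00652 and 0.0002).

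No named gene changed direction and stayed called. Signs of small changes turned for Dio2 (0.0049 with all libraries, 0.022 with the barcode covariate, 0.025 without unusual barcodes), Hcrt (-0.022 in DESeq2, -0.0060 with no filter, -0.012 in limma voom, -0.027 thinned), Npy (-0.15 with the depth covariate, -0.012 in limma voom, -0.020 in the shared depth range, -0.11 with the barcode covariate and without unusual barcodes), Oxt (-0.10 with the barcode covariate and without unusual barcodes) and Ptprm (0.084 with the depth covariate, 0.021 at 500000 counts, 0.0035 with all libraries, 0.19 in the shared depth range). Without PFOS library 31 and with the depth covariate, signs turned for Hsp90ab1 (0.0040), Npy (-0.078), Ptprm (0.10) and Shank1 (3.9e-05). With 1 library left out, log2 changes ran from -0.16 to 0.065 for Dio2, -0.039 to 0.57 for Hcrt, -0.22 to 0.023 for Hsp90ab1, -0.23 to 0.12 for Npy, -0.071 to 0.24 for Ptprm and -1.65 to 0.011 for Shank1. No paired analysis was possible because the compared groups share no replicate number. The plate's well column as a factor gave 563 genes.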

Other observations

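Marker lists of other cell types and of general responses, not described above, held 1 gene that passed without a depth term and 0 with the covariate. Over all genes, 8.14% passed without a depth term and 0.788% with it. Calb2, calretinin, one of 3 tested markers of cortex, hippocampus and thalamus, rose (3.00% of all genes did) by 0.35 ± 0.09 on the log2 scale (adjusted p = 0.00989 by edgeR's quasi-likelihood test), from a median of 511 CPM with vehicle (338 to 672) to one of 659 CPM with both compounds (586 to 926). All 11 combination libraries were above the vehicle mean, and the change with the covariate was 0.32 ± 0.11 (adjusted p = 0.143). The 11 list genes in the table, most of them too low to test, together made up 0.039 to 0.078% of counts with vehicle and 0.068 to 0.097% with both compounds. Tcf7l2 and Prkcd, also tested, did not pass and had vehicle medians of 69.9 and 20.4 CPM, so this share largely repeats Calb2.

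The lists that follow are short, and 8.14% of all genes passed, so a count of 0 in them says little. No gene passed among 7 of meningeal fibroblasts (median log2 change -0.50), 9 of ependymal cells and tanycytes (-0.08), 2 of choroid plexus (0.03), 4 of oligodendrocyte precursors (-0.25) and 6 of pituitary cells (-0.15). The 11 meningeal genes in the table made up 0.086 to 0.478% of counts in vehicle libraries (median 0.131%) and 0.080 to 0.243% in combination libraries (median 0.107%). Among responses, none passed of 8 immediate early and ERK phosphatase genes (-0.12), 10 circadian clock genes (0.12) and 9 glucocorticoid-responsive genes (-0.29).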
